A study of Mus musculus with 10 samples.

Results

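Complexes III to V of the mitochondrial inner membrane are built from proteins of the nuclear and the mitochondrial genomes, and complex II from nuclear ones alone. The nuclear genes of complexes II to V were followed in left ventricular RNA of mice. The genes were chosen by symbol (Sdha to Sdhd and symbols that begin with these letters, Uqcr, Cox followed by a digit, Atp5, Cyc1 and Cycs), without symbols that carry the pseudogene mark -ps, and with TPM above 0 in at least 9 of the 10 mice. TPM is an abundance corrected for transcript length and scaled within each mouse. Of 29564 genes listed, 64 symbols fitted the letters. Of these, 4 carried -ps and Cox8c was at 0 in every mouse, which left 59 genes. All 59 were among the 13298 genes tested, and Cox7b2 was the one gene above 0 in exactly 9 mice. By role, 4 genes encode complex II, 10 encode complex III or cytochrome c, 17 encode complex IV, 15 encode ATP synthase and 13 are assembly or accessory factors.

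The groups held 5 mice each, and all were male wild-type C57BL/6J mice whose treatment is labelled as vehicle. The dosing protocol, 10 mL/kg daily over 6 to 9 weeks, names HFD+mTAC mice, and whether control mice were dosed in the same way is not given in the sources used here. HFD+mTAC mice ate a high-fat diet, in which fat gave 60% of kilocalories, and at 11 weeks of age had the aorta narrowed by moderate transverse aortic constriction, which loads the left ventricle with pressure. Induction lasted 16 weeks. Control mice had no constriction and ate chow in which fat gave 10% of kilocalories. Diet and surgery were applied together, so that their effects cannot be told apart here.

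In the respiratory chain, complex II oxidises succinate and passes electrons to ubiquinone, complex III passes them on to cytochrome c, and complex IV hands them to oxygen. Complexes III and IV pump protons, and ATP synthase, or complex V, uses the proton gradient to make ATP. The adult heart muscle cell is densely packed with mitochondria and carries muscle isoforms of several complex IV subunits, here Cox6a2, Cox7a1 and Cox8b, in place of or beside the isoforms Cox6a1, Cox7a2 and Cox8a found in most tissues.

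Libraries held 34.2 to 53.7 M estimated counts, of which 12.6 to 21.1 M lay on the genes tested, and the 59 genes took 4.60 to 5.77% of the latter. Levels are given as CPM, in which the counts of a gene are scaled to an equal total over the tested genes after TMM normalization. The label of left ventricle was checked against marker lists. Of the 4 atrial markers, Sln stood at or below 0.212 CPM and Myl7 at or below 1.48 CPM in every mouse, while Myl4 averaged 3.34 CPM in control and 2.48 CPM in HFD+mTAC mice. Nppa, an atrial peptide that the loaded ventricle is also known to make, averaged 270.0 CPM in control and 185 CPM in HFD+mTAC mice and made up nearly all of the atrial sum of 198 to 376 against 122.5 to 338 CPM. The skeletal muscle myosin Myh4 stood at or below 0.128 CPM, whereas Myl2, the ventricular light chain, averaged 18270 CPM in control and 15737 CPM in HFD+mTAC mice. The summed level of 8 heart muscle cell markers was 64871 to 69928 CPM in control and 54170 to 62263 CPM in HFD+mTAC mice, with no overlap. Most of that sum was Myl2, Actc1 and Tnnt2, the last 2 with means of 15207 and 13458 CPM in control and 12801 and 11732 CPM in HFD+mTAC mice. The fitted change was below 0 for 8 of these 8 markers, 2 had an unadjusted p under 0.05 and 0 were called. It was nearest 0 for Ryr2 (-0.07 ± 0.15 SE). In bulk tissue, fewer cells of a type and less RNA per cell cannot be told apart. The summed level of 5 fat markers was 33.4 to 45.1 against 46.5 to 56.5 CPM, also without overlap. Nearly all of that sum was Cidea, while Adipoq reached at most 1.10 CPM and Ucp1 was at 0 in every mouse. The sums of the other 8 lists (fibroblast, endothelial, mural, macrophage, lymphocyte, skeletal muscle, atrial and red cell) overlapped between the groups.

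The promoters of these genes are shown first, since many genes of the respiratory chain are known to share short promoter motifs. NRF1, GABP (also called NRF2), the estrogen-related receptors (ERR) and YY1 are factors known for control of respiratory chain genes. A window from 250 bases before to 50 bases after the start was taken from RefSeq (GRCm38.p6) for 47 of the 59 genes, 3 of them through a newer symbol. In 37 of the 47 windows, the 25 bases after the start lay in the first 300 bases of a GENCODE transcript of the gene. The start of the other windows was not matched in this way, and the shares below cover all 47. The letters searched on both strands were GCATGCGC for NRF1, CCGGAAGT for GABP, AAGGTCA for ERR and AAGATGGC for YY1. The NRF1 letters were in 17.0% of the 47 windows and in 5.75% of the windows of 10060 tested genes. The GABP letters were in 17.0 and 8.34%, the ERR letters in 10.6 and 3.94%, and the YY1 letters in 12.8 and 4.91%. At least 1 of the 4 motifs was in 23 of the 47 windows. In 4 windows the NRF1 letters matched on both strands over the same bases, and in 0 windows did 2 different motifs overlap. A match describes letters and is not a binding site.

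Stretches before the start are printed for 4 genes with a motif, 1 for each motif, and for 2 muscle isoforms of complex IV in whose stretch none of the 4 was found. The capitals mark the motif on either strand, each line reads 5′ to 3′ along the gene, and each stretch ends before the start in both RefSeq and GENCODE. Cycs (NRF1) lies at chr6:50566570-50566689 on the minus strand, Uqcrh (GABP) at chr4:116075072-116075190 on the minus strand, Atp5g3 (ERR) at chr2:73911327-73911446 on the minus strand, and Cox20 (YY1) at chr1:178319033-178319129 on the plus strand. The stretch of Cox7a1 lies at chr7:30184051-30184143 on the plus strand and that of Cox8b at chr7:140900447-140900566 on the minus strand.
Cycs: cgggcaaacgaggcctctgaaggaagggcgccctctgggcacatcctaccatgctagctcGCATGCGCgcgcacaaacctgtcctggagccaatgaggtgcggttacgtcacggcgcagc
Uqcrh: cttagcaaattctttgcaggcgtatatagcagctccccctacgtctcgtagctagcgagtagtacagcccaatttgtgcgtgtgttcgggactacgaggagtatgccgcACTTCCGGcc
Atp5g3: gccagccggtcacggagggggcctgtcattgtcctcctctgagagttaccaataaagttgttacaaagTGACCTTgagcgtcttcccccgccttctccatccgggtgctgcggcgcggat
Cox20: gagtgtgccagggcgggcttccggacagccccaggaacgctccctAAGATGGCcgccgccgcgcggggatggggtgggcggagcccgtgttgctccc
Cox7a1: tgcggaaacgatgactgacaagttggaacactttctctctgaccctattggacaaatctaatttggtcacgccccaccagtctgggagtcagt
Cox8b: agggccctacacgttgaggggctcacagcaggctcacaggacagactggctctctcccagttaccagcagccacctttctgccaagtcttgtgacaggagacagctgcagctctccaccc

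By abundance these genes are among the main products of the ventricle. Their summed TPM over the tested genes was 131383 ± 12606 in control and 124375 ± 11880 in HFD+mTAC mice (SD, n = 5 each), which is 12.8% of all TPM of the tested genes. ATP synthase genes accounted for 57070 ± 5718 and 53372 ± 4900 TPM, complex IV genes for 51151 ± 5700 and 48480 ± 5721, and complex III genes with cytochrome c for 17774 ± 1350 and 17009 ± 1516. Complex II genes summed to 3525 ± 444 and 3723 ± 627 TPM, and assembly factors to 1864 ± 197 and 1791 ± 273 TPM. All of these sums overlapped between the groups. TPM divides by an effective length that the authors' quantification estimated. For 8 of the 59 genes the median effective length was 251 bases to within 0.5 bases, with coding lengths from 246 to 516 bases, so that TPM ranks between genes are approximate.

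To ask whether the combined diet and surgery went with another level of these genes, counts of HFD+mTAC mice were compared with those of control mice by edgeR's quasi-likelihood test across all 13298 genes. None of the 59 genes was called at an adjusted p under 0.05 (0 of 59), and the smallest adjusted p was 0.443, for Cox6b1. In all genes, 8 were called, which is 0.0602%. DESeq2 called 0 of the 59 as well, with a smallest adjusted p of 0.180, against 120 of 13030 genes, or 0.921%. At an unadjusted p under 0.05, 6 of the 59 genes were lower in HFD+mTAC mice (Atp5f1, Cox20, Cox6b1, Cox7b2, Cycs and Uqcrb) and 0 were higher, while 3.72% of all genes were lower and 4.53% higher at that threshold. The CPM of the groups did not overlap for 0 of the 59 genes in either direction. In all genes the groups lay apart with HFD+mTAC lower in 0.887% and higher in 1.08%.

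The direction of the fitted changes was uneven. The log2 fold change was below 0 for 48 of the 59 genes (81.4%) and above 0 for 11, whereas it was below 0 for 49.7% of all genes. Most of the 59 genes are short, and among the other tested genes with a mean over 5 CPM it was below 0 for 70.4% of those with up to 300 coding bases, 66.3% above 300 and up to 600, 56.2% above 600 and up to 1200, and 43.8% beyond that. The shares of the 59 genes in these classes of length were 90%, 78.3%, 77.8% and 71.4%. On TPM, the fitted change was below 0 for 40 of the 59 genes with 1 TPM added before the log2 and for 41 with 0.1 TPM added. In all genes it was below 0 for 44.1 and 44.3% in these runs. The median was -0.12 for the 59 genes and 0.00 for all genes, and the median SE of a single gene was 0.12. Fitted changes were below 0 for 3 of 4 genes of complex II (median -0.07), 10 of 10 of complex III with cytochrome c (median -0.10), 12 of 17 of complex IV (median -0.14), 15 of 15 of ATP synthase (median -0.17) and 8 of 13 assembly factors (median -0.03). The summed level of the heart muscle cell markers was also lower in HFD+mTAC mice, as given above, and its part in these counts was not tested. A run without mice TT-587 and TT-588 was added after the data were seen. Control mouse TT-587 had the highest value of 30 of the 59 genes and HFD+mTAC mouse TT-588 the lowest value of 38. Leaving both out is therefore bound to bring the groups closer for such genes. In that run the fitted change was below 0 for 36 of the 59 genes, against 48.1% of all genes, and the median of the 59 genes was -0.04. There, 0 genes were lower and 1, Cox8a, was higher at an unadjusted p under 0.05. The count of 6 lower genes at that threshold was 1 without mouse TT-583 or without TT-592, and 2 without TT-587, without TT-588, on TPM or with transcript lengths as an offset. It was 7 without TT-585, with the size factors of DESeq2, with all biotypes or with edgeR's own filter, 8 without TT-591 and 9 by DESeq2. The shares of all genes at that threshold in these alternative runs are not given here. The counts of different runs therefore cannot be set against a background.

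**Figure D1:**
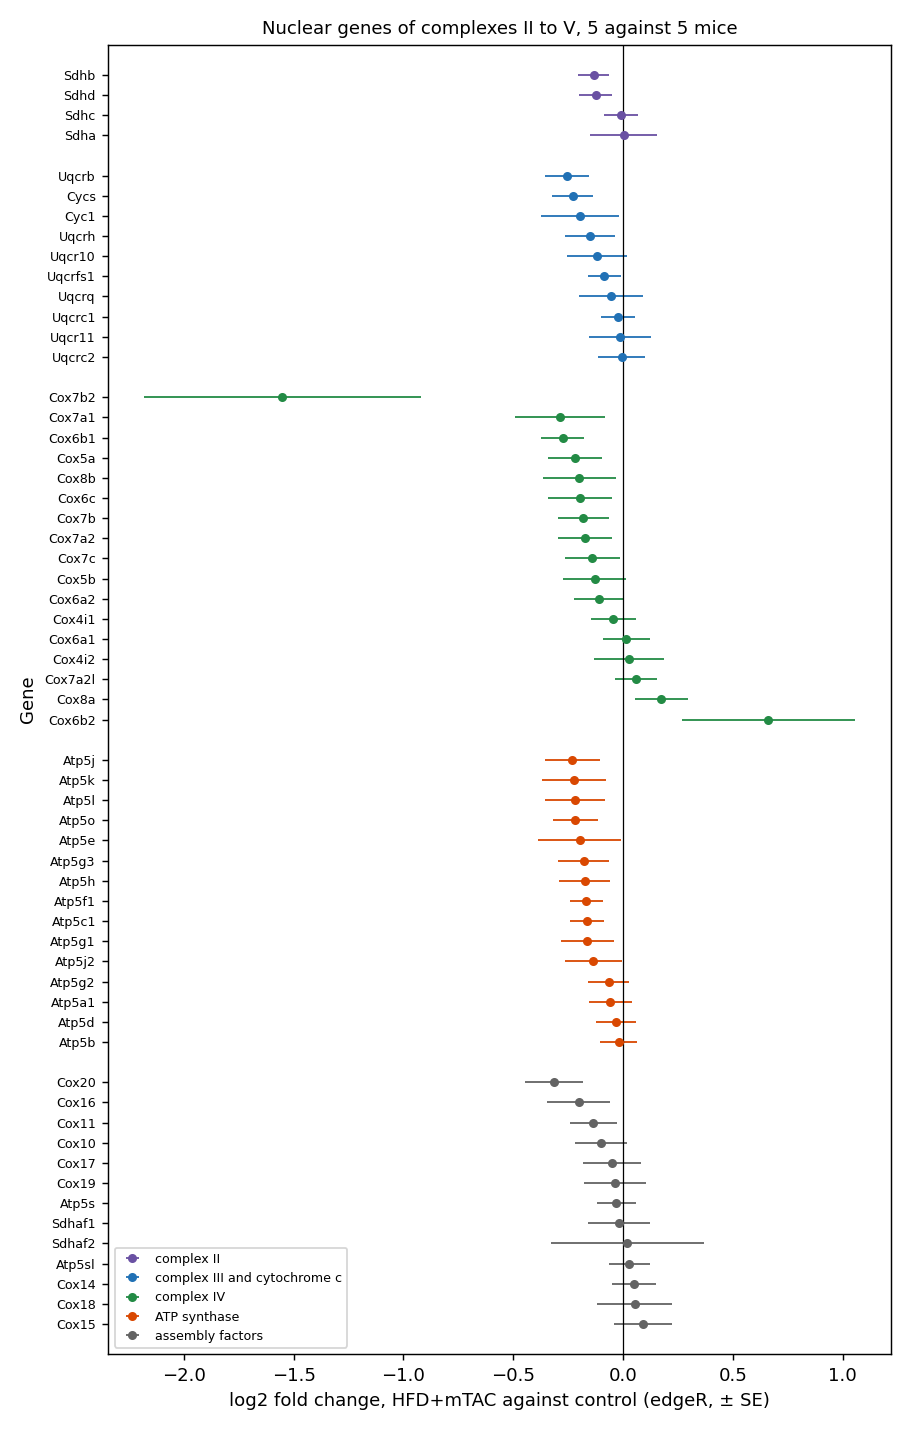
Fitted log2 fold change (HFD+mTAC against control, horizontal axis) of each of the 59 genes, grouped and coloured by role, with bars for ± 1 SE from edgeR. The points of complex III and ATP synthase all lie below 0, within about 0.25 of it, and Cox7b2 at -1.55 and Cox6b2 at 0.66 are genes with few counts.

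Values of single mice are given in the order TT-583 to TT-587 for control and TT-588 to TT-592 for HFD+mTAC mice. Complex II has 4 subunits, all nuclear. Sdhb, the iron-sulfur subunit, measured 1099, 1126, 1051, 1076 and 1189 CPM in the control mice and 936, 1025, 1054, 1041 and 993 CPM in HFD+mTAC mice. Its groups overlapped by a single pair, the lowest control mouse at 1051 and the highest HFD+mTAC mouse at 1054 (log2 fold change -0.13 ± 0.07 SE, edgeR adjusted p = 0.676). Sdhd, a membrane anchor, was at 636, 664, 625, 566 and 565 CPM in the control mice and 531, 596, 558, 562 and 558 CPM in HFD+mTAC mice. Control mice TT-583 to TT-585 lay above all HFD+mTAC mice and TT-586 and TT-587 lay among them (-0.12 ± 0.08, adjusted p = 0.721). Sdhc, the other anchor, was at 503, 534, 569, 503 and 511 CPM in the control mice and 494, 590.6, 491, 512 and 517 CPM in HFD+mTAC mice, with the highest value of all in HFD+mTAC mouse TT-589 (-0.01 ± 0.08, adjusted p = 0.991).

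Sdha, the flavoprotein that holds the succinate site, was the member with the least stable length. It measured 1629, 1739, 2259, 1941 and 1444 CPM in the control mice and 2001, 2217, 1487, 1377 and 1945 CPM in HFD+mTAC mice. Both groups spanned almost the same range (0.00 ± 0.15, edgeR adjusted p = 0.999). The effective length estimated for Sdha ran from 966 bases in control mouse TT-587 to 4597 bases in HFD+mTAC mouse TT-588, a ratio of 4.76. The TPM of Sdha therefore ran from 488 in mouse TT-588 to 2012 in mouse TT-589, although CPM placed these mice at 2001 and 2217. Effective lengths varied over 1.5 times among mice for 15 of the 59 genes (25.4%) and for 43.0% of all tested genes, and over 2 times for 5 genes (Sdha, Cox10, Cox15, Uqcrc2 and Cox19). The sign of the fitted change was opposite between counts and TPM for 8 of the 59 genes, among them Uqcrc2 (-0.01 on counts and 0.15 on TPM), Cox10 (-0.10 and 0.13) and Uqcrc1 (-0.02 and 0.09).

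**Figure D2:**
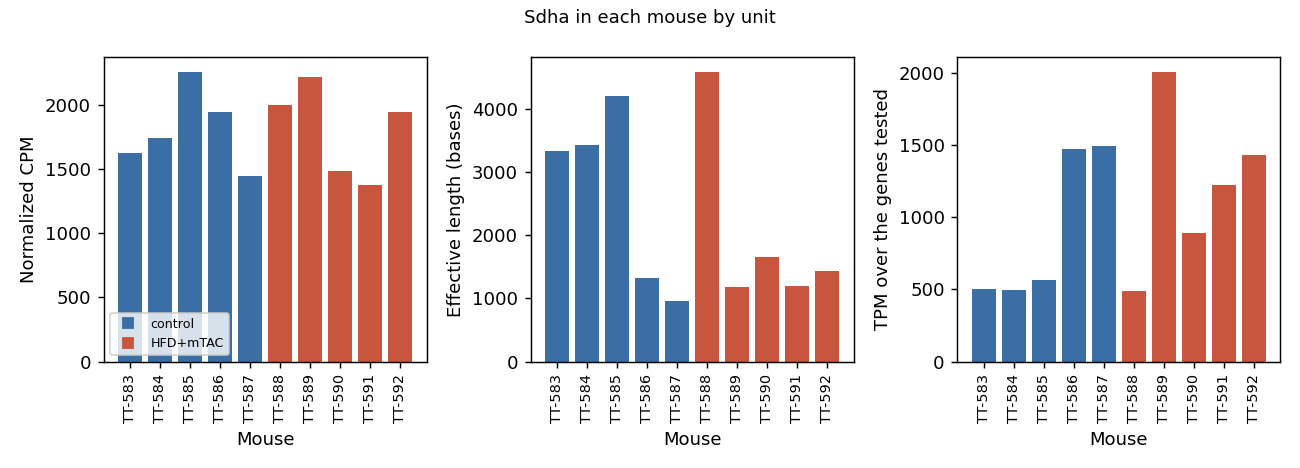
Sdha in each of the 10 mice as normalized CPM (left), effective length in bases (middle) and TPM over the tested genes (right), with blue bars for control and red bars for HFD+mTAC mice. CPM stays between 1377 and 2259 while the effective length spans 966 to 4597 bases, and mice with a short effective length have a high TPM.

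Complex III and cytochrome c were represented by 10 genes. Uqcrb, a small subunit next to the ubiquinone site, was at 1015, 902, 842, 912 and 1042 CPM in the control mice and 676, 832, 856, 893 and 694 CPM in HFD+mTAC mice. Control mouse TT-585 lay below HFD+mTAC mice TT-590 and TT-591, and the other control mice lay above all HFD+mTAC mice (-0.25 ± 0.10, unadjusted p = 0.0267, edgeR adjusted p = 0.514). Cycs, the cytochrome c that carries electrons to complex IV, was at 1034, 996, 865, 1050 and 1052 CPM in the control mice and 730, 837, 983, 893 and 821 CPM in HFD+mTAC mice. Here too control mouse TT-585 was the one that fell among the HFD+mTAC mice (-0.23 ± 0.09, unadjusted p = 0.0308, adjusted p = 0.530).

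Uqcrh, the hinge protein between cytochromes c1 and c, had the highest mean TPM of these 10 genes, 3875 ± 406 in control and 3646 ± 452 in HFD+mTAC mice. Its CPM was 978, 995, 878, 830 and 1110 in the controls and 714, 874, 958, 1004 and 765 in HFD+mTAC mice, and the ranges overlapped widely (-0.15 ± 0.11, edgeR adjusted p = 0.791). Cyc1, or cytochrome c1, had the lowest mean TPM, 83.8 and 67.1. Its CPM was 284, 250, 155, 187 and 277 in the controls and 163, 171, 246, 241 and 187 in HFD+mTAC mice. The spread within each group exceeded the difference between them (-0.19 ± 0.18, adjusted p = 0.839). The core proteins Uqcrc1 and Uqcrc2, which have the longest coding sequences here, had fitted changes of -0.02 ± 0.08 and -0.01 ± 0.11, and the Rieske protein Uqcrfs1 had one of -0.09 ± 0.07.

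Complex IV had the most members and the widest spread. Cox6b1, a subunit on the intermembrane face, lies at chr7:30616861-30626151 (GRCm38, GENCODE M21, minus strand) and had the smallest p of all 59 genes. It was at 949, 916, 834, 970 and 1142 CPM in the control mice and 724, 758, 902, 810 and 782 CPM in HFD+mTAC mice. HFD+mTAC mouse TT-590 lay above control mouse TT-585, and the remaining HFD+mTAC mice lay below all controls (-0.28 ± 0.10, unadjusted p = 0.0142, edgeR adjusted p = 0.443). Its fitted change was -0.21 without mouse TT-587, -0.24 without mouse TT-588 and -0.17 without both, a pair left out after the data were seen. Cox5a, a matrix-side subunit, was at 1067, 1016, 854, 857 and 1268 CPM in the control mice and 760, 810, 946, 1017 and 821 CPM in HFD+mTAC mice. Control mice TT-584, TT-585 and TT-586 lay within the HFD+mTAC range and TT-583 and TT-587 above it (-0.22 ± 0.12, adjusted p = 0.700).

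Both testis-type isoforms in the list were close to the limit of detection. Cox7b2 had rounded counts of 10, 9, 7, 1 and 8 in the controls and 0, 3, 2, 2 and 3 in HFD+mTAC mice. Control mouse TT-586 lay below 4 of the HFD+mTAC mice, and the other control mice lay above all of them. The fitted change of -1.55 ± 0.63 (unadjusted p = 0.0293, edgeR adjusted p = 0.525) rests on these few counts, and the gene was not kept under edgeR's own filter on low counts. Cox6b2 had counts of 27, 47, 16, 15 and 24 in the controls and 30, 15, 46, 35 and 51 in HFD+mTAC mice. Its ranges overlapped (0.66 ± 0.39, adjusted p = 0.713).

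The muscle isoforms of complex IV were compared with their general partners. Cox6a2 (chr7:128205435-128206387, minus strand) had the highest mean TPM of all 59 genes, with 12802 ± 1317 in control and 12372 ± 1252 in HFD+mTAC mice. Its CPM was 2795, 3094, 2909, 3294 and 3740 in the controls and 2473, 2858, 3526, 3106 and 2696 in HFD+mTAC mice, and the ranges overlapped (-0.11 ± 0.11, edgeR adjusted p = 0.862). Its partner Cox6a1 was at 110, 112, 91.1, 101 and 114 CPM in the control mice and 90.1, 95.1, 131, 112 and 107 CPM in HFD+mTAC mice, also overlapping (0.01 ± 0.11, adjusted p = 0.987). The log2 ratio of their TPM was 4.66, 4.78, 5.00, 5.02 and 5.04 in the controls and 4.78, 4.91, 4.75, 4.80 and 4.66 in HFD+mTAC mice. The difference between the group means of 4.90 and 4.78 was smaller than the spread among control mice (exact permutation test, two-sided, p = 0.206).

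Cox7a1 (chr7:30184144-30186078, plus strand) was at 235, 181, 136, 137 and 224 CPM in the control mice and 102, 125, 190, 193 and 140 CPM in HFD+mTAC mice. In both groups the mice fell into high and low values, with no separation by group (-0.29 ± 0.20, edgeR adjusted p = 0.778). Cox7a2 was at 407, 419, 348, 351 and 470 CPM in the control mice and 289, 344, 398, 429 and 309 CPM in HFD+mTAC mice, and the groups overlapped (-0.17 ± 0.12, adjusted p = 0.781). The log2 ratio of Cox7a1 to Cox7a2 TPM was 0.17, -0.38, -0.55, -0.54 and 0.12 in the controls and -0.69, -0.65, -0.13, 0.04 and -0.34 in HFD+mTAC mice (means -0.24 and -0.35, exact permutation p = 0.571). In TPM, neither isoform was ahead in all mice of a group, whereas in CPM Cox7a2 lay above Cox7a1 in every mouse. TPM is divided by the effective length, which was 143 bases in every mouse for Cox7a1 and 251 to 326 bases for Cox7a2. Which isoform is ahead therefore depends on these lengths.

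Cox8b (chr7:140898945-140900446, minus strand) was at 510, 475, 371, 364 and 592.4 CPM in the control mice and 316, 351, 470, 517 and 359 CPM in HFD+mTAC mice, with wide overlap (-0.20 ± 0.17, edgeR adjusted p = 0.812). Cox8a was at 105, 113, 98.1, 96.6 and 130 CPM in the control mice and 99.2, 120, 149, 136 and 109 CPM in HFD+mTAC mice. It had a fitted change above 0, with HFD+mTAC mice TT-590 and TT-591 above all controls (0.17 ± 0.12, adjusted p = 0.773). The log2 ratio of Cox8b to Cox8a TPM was 3.86, 3.58, 3.90, 3.19 and 3.80 in the controls and 3.66, 3.77, 3.14, 3.98 and 3.08 in HFD+mTAC mice (means 3.67 and 3.53, exact permutation p = 0.556). On CPM, an alternative to the planned TPM, the difference between the groups in this ratio was -0.37 with an exact permutation p of 0.0238, not adjusted for the other ratios and shares. TPM is divided by the effective length, which was 267 to 512 bases among mice for Cox8a and 110 bases in every mouse for Cox8b, and CPM is not.

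The isoform Cox4i2, known from lung and from low oxygen, stood far below Cox4i1, with mean log2 ratios of TPM of -7.18 in both groups (exact permutation p = 0.984). Of the 3 genes that encode the same mature subunit c of ATP synthase, Atp5g3 gave 52.6 ± 3.8% of their summed TPM in control and 51.2 ± 1.8% in HFD+mTAC mice, Atp5g1 gave 40.5 ± 2.9 and 41.2 ± 2.3%, and Atp5g2 gave 6.90 ± 1.20 and 7.55 ± 1.12%. The exact permutation p of these shares was 0.587, 0.714 and 0.389. After adjustment over the 7 ratios and shares, the adjusted p lay between 0.822 and 0.984. On CPM the share of Atp5g2 differed by 0.617 percentage points, with an exact permutation p of 0.0397 that was not adjusted over the 7.

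**Figure D3:**
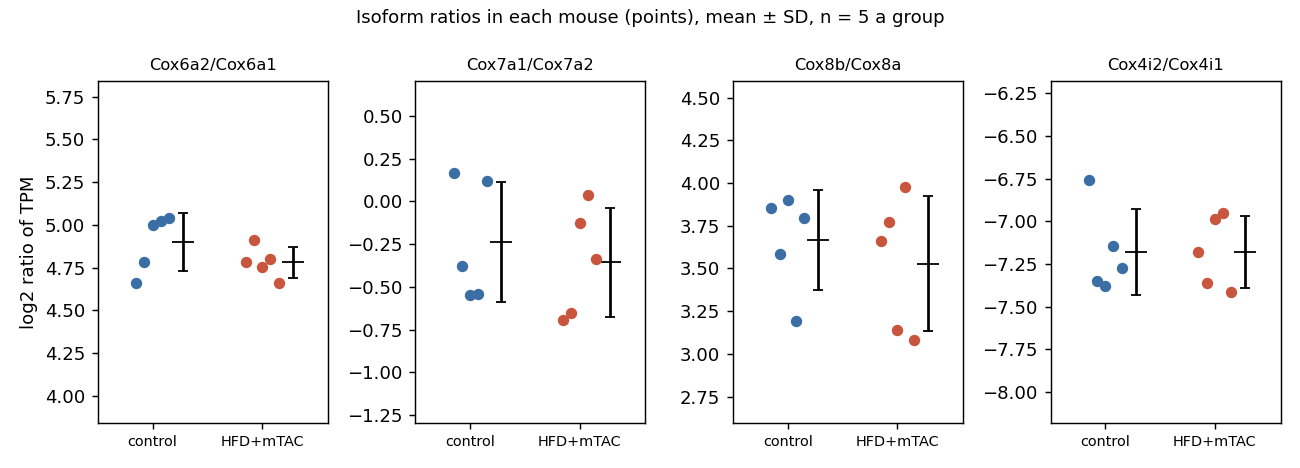
The log2 ratio of TPM (vertical axis) of 4 pairs of complex IV isoforms in each mouse, blue for control and red for HFD+mTAC, with the mean ± SD of each group (n = 5) beside the points. Every panel spans 2 log2 units, and the points of the groups overlap in all of them.

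ATP synthase was represented by 15 genes. Atp5f1, subunit b of the stalk that holds the catalytic head, was at 1638, 1655, 1681, 1667 and 1568 CPM in the control mice and 1459, 1663, 1398, 1389 and 1405 CPM in HFD+mTAC mice. Only HFD+mTAC mouse TT-589 reached the range of the control mice, and the other HFD+mTAC mice lay below all of them (-0.17 ± 0.08, unadjusted p = 0.0490, edgeR adjusted p = 0.6003). Atp5o, the stalk protein OSCP, was at 1533, 1546, 1372, 1364 and 1713 CPM in the control mice and 1105, 1278, 1435, 1456 and 1203 CPM in HFD+mTAC mice. HFD+mTAC mice TT-590 and TT-591 lay among the controls and the others below them (-0.22 ± 0.10, adjusted p = 0.604). The annotation holds 2 entries of this symbol, so that its reads may be split.

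Atp5c1, the rotating subunit gamma, was at 1866, 2087, 1827, 2030 and 2116 CPM in the control mice and 1640, 1847, 1903, 1711 and 1758 CPM in HFD+mTAC mice, and HFD+mTAC mice TT-589 and TT-590 overlapped the controls (-0.16 ± 0.08, edgeR adjusted p = 0.625). Atp5b, the catalytic subunit beta, had the highest mean TPM of the 15 genes, 9058 ± 1278 in control and 8895 ± 1110 in HFD+mTAC mice. Its CPM was 6322, 6991, 6792, 6461 and 6308 in the controls and 6519, 6931, 6363, 5737 and 6859 in HFD+mTAC mice, and each HFD+mTAC mouse other than TT-591 lay within the control range (-0.02 ± 0.08, adjusted p = 0.971). Atp5g2, with the lowest mean TPM, was at 321, 344, 310, 324 and 374 CPM in the control mice and 276, 296, 356, 355 and 316 CPM in HFD+mTAC mice, and the groups overlapped (-0.07 ± 0.09, adjusted p = 0.913). For the remaining genes of this enzyme the fitted changes lay between -0.23 (Atp5j, coupling factor 6) and -0.03 (Atp5d, subunit delta).

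Assembly factors help build the complexes, and their summed TPM was the lowest of the roles, although single ones such as Cox17 stood above some subunit genes. These genes were taken by symbol, and the letters do not show which complex a factor acts on. Atp5sl, for example, has the newer symbol Dmac2. Cox20, a chaperone of the mitochondrially encoded subunit COX2, was at 85.5, 73.8, 72.6, 85.2 and 96.8 CPM in the control mice and 53.7, 63.4, 84.5, 75.6 and 56.0 CPM in HFD+mTAC mice. HFD+mTAC mice TT-590 and TT-591 lay among the controls and the other 3 lay below all of them (-0.31 ± 0.13, unadjusted p = 0.0343, edgeR adjusted p = 0.546). Cox16 was at 47.1, 35.2, 28.4, 32.1 and 39.5 CPM in the control mice and 30.8, 28.4, 39.9, 32.2 and 27.3 CPM in HFD+mTAC mice, with overlap (-0.20 ± 0.14, adjusted p = 0.780). Cox11, which delivers copper to complex IV, was at 16.1, 17.5, 14.3, 17.6 and 15.5 CPM in the control mice and 13.7, 15.2, 17.2, 13.6 and 14.0 CPM in HFD+mTAC mice, again with overlap (-0.14 ± 0.11, adjusted p = 0.801).

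Cox17, a copper chaperone and the assembly factor with the highest mean TPM, was at 203, 195, 175, 181 and 236 CPM in the control mice and 162, 187, 216, 240 and 150 CPM in HFD+mTAC mice. The HFD+mTAC mice held both the lowest and the highest values (-0.05 ± 0.13, edgeR adjusted p = 0.952). Sdhaf2, which attaches the flavin to Sdha and had the lowest mean TPM, was at 2.93, 2.995, 2.89, 4.23 and 1.89 CPM in the control mice and 4.23, 2.96, 4.15, 2.94 and 0.921 CPM in HFD+mTAC mice, on counts of 15 to 66 (0.02 ± 0.35, adjusted p = 0.995). The genes with fitted changes above 0 among these 13 were Sdhaf2, Atp5sl, Cox14, Cox18 and Cox15, with values up to 0.09.

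Partner genes outside the symbol rule were counted from a list of 41 further subunits, assembly factors, electron transfer proteins and ubiquinone enzymes, of which 39 were tested. Their fitted changes were below 0 for 29 (74.4%, against 49.7% of all genes) and above 0 for 10, with a median of -0.08. Of these genes 0 were called, against 0.0602% of all genes. At an unadjusted p under 0.05, 3 were lower and 0 higher, against 3.72 and 4.53% of all genes. These 3, with the smallest p of the list, are given below. Coding lengths of the list were not compared. Cmc2, a copper-handling assembly factor, was at 52.2, 57.8, 47.6, 48.6 and 49.0 CPM in the control mice and 34.2, 41.6, 44.5, 45.8 and 36.1 CPM in HFD+mTAC mice. It was the one gene of the list whose groups did not overlap on CPM (-0.34 ± 0.10, edgeR adjusted p = 0.340). In all genes, the groups lay apart on CPM with HFD+mTAC lower in 0.887%. On TPM the groups of Cmc2 overlapped, at 95.2 to 121 in control and 79.8 to 128 in HFD+mTAC mice. Its log2 fold change on log2(TPM + 1) was -0.19 ± 0.13. Pdss1, which makes the tail of ubiquinone, was at 17.1, 20.1, 22.0, 20.0 and 19.4 CPM in the control mice and 15.8, 16.1, 18.1, 14.7 and 15.0 CPM in HFD+mTAC mice, where control mouse TT-583 lay below HFD+mTAC mouse TT-590 (-0.31 ± 0.10, adjusted p = 0.407). Coq7, a hydroxylase of ubiquinone synthesis, was at 160, 156, 160, 155 and 194 CPM in the control mice and 133, 128, 131, 156 and 144 CPM in HFD+mTAC mice. Its groups overlapped through control mouse TT-586 and HFD+mTAC mouse TT-591 (-0.26 ± 0.09, adjusted p = 0.432).

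The mitochondrial genome encodes 6 subunits of complexes III to V, and these were compared by two-sided exact permutation tests on log2 CPM, where CPM refers to the counts on the nuclear tested genes alone. Mitochondrially encoded genes took 47.8 ± 3.6% of all counts in control and 50.1 ± 2.4% in HFD+mTAC mice. The difference of log2 CPM, HFD+mTAC minus control, was 0.22 for mt-Cytb of complex III (exact p = 0.175), 0.15 for mt-Co1 (exact p = 0.23) and 0.00 for mt-Co2 (exact p = 1) of complex IV. It was 0.09 for mt-Co3 of complex IV (exact p = 0.754), 0.21 for mt-Atp6 (exact p = 0.238) and -0.01 for mt-Atp8 (exact p = 0.937) of ATP synthase. All 6 pairs of groups overlapped, and the adjusted p over the 6 genes was 0.476 to 1. On deposited TPM, mt-Cytb lay at 85492 to 98497 in control and 98511 to 104951 in HFD+mTAC mice, without overlap (log2 difference 0.14, exact p = 0.00794, the smallest possible, adjusted p = 0.0476 over the 6 genes). The adjusted p of the other 5 genes on TPM was 0.262 to 0.984. TPM has a fixed total in each mouse, so that the values of these genes depend on each other. The effective length of mt-Atp8 was 9 bases in every mouse. Its TPM was 110181 to 159341 in control and 103983 to 156211 in HFD+mTAC mice. The part of this in the TPM of mt-Cytb was not tested. Libraries were made from polyadenylated RNA, and the levels of these transcripts were not set against those of single nuclear genes. Since CPM is scaled to the nuclear tested genes, the differences of log2 CPM are relative to those genes as a whole.

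Differences among mice of the same group were shared by many of the 59 genes. The median deviation of the 59 genes from their own means (log2 CPM) averaged 0.06 ± 0.12 in control and -0.05 ± 0.16 in HFD+mTAC mice (SD, n = 5 each), so that the spread within a group exceeded the gap between the groups. Control mouse TT-587 had the highest value of 30 of the 59 genes and HFD+mTAC mouse TT-588 the lowest value of 38. The next most frequent were HFD+mTAC mouse TT-590, highest for 9 genes, and HFD+mTAC mouse TT-591, lowest for 11. Mouse TT-587 also had the highest and mouse TT-588 the lowest summed level of the heart muscle cell markers. The part of the heart muscle cell share in these differences was not tested.

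When the genes were ordered by the length of their coding sequence (the longest in GENCODE M21), the pattern of the mice turned over from short to long genes. Deviations are log2 CPM minus the mean of the gene over the 10 mice. For the 20 genes with up to 300 coding bases, the median deviation was 0.09, 0.12, -0.11, -0.14 and 0.38 in the controls and -0.36, -0.15, 0.16, 0.21 and -0.17 in HFD+mTAC mice. For the 7 genes over 1200 bases (Cox15, Cox10, Uqcrc2, Uqcrc1, Atp5b, Atp5a1 and Sdha) it was -0.07, 0.10, 0.15, 0.06 and -0.13 in the controls and 0.10, 0.13, -0.13, -0.28 and 0.07 in HFD+mTAC mice. In every mouse but control mouse TT-584, the short and the long genes deviated in opposite directions. The classes of length were drawn after the values were seen.

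**Figure D4:**
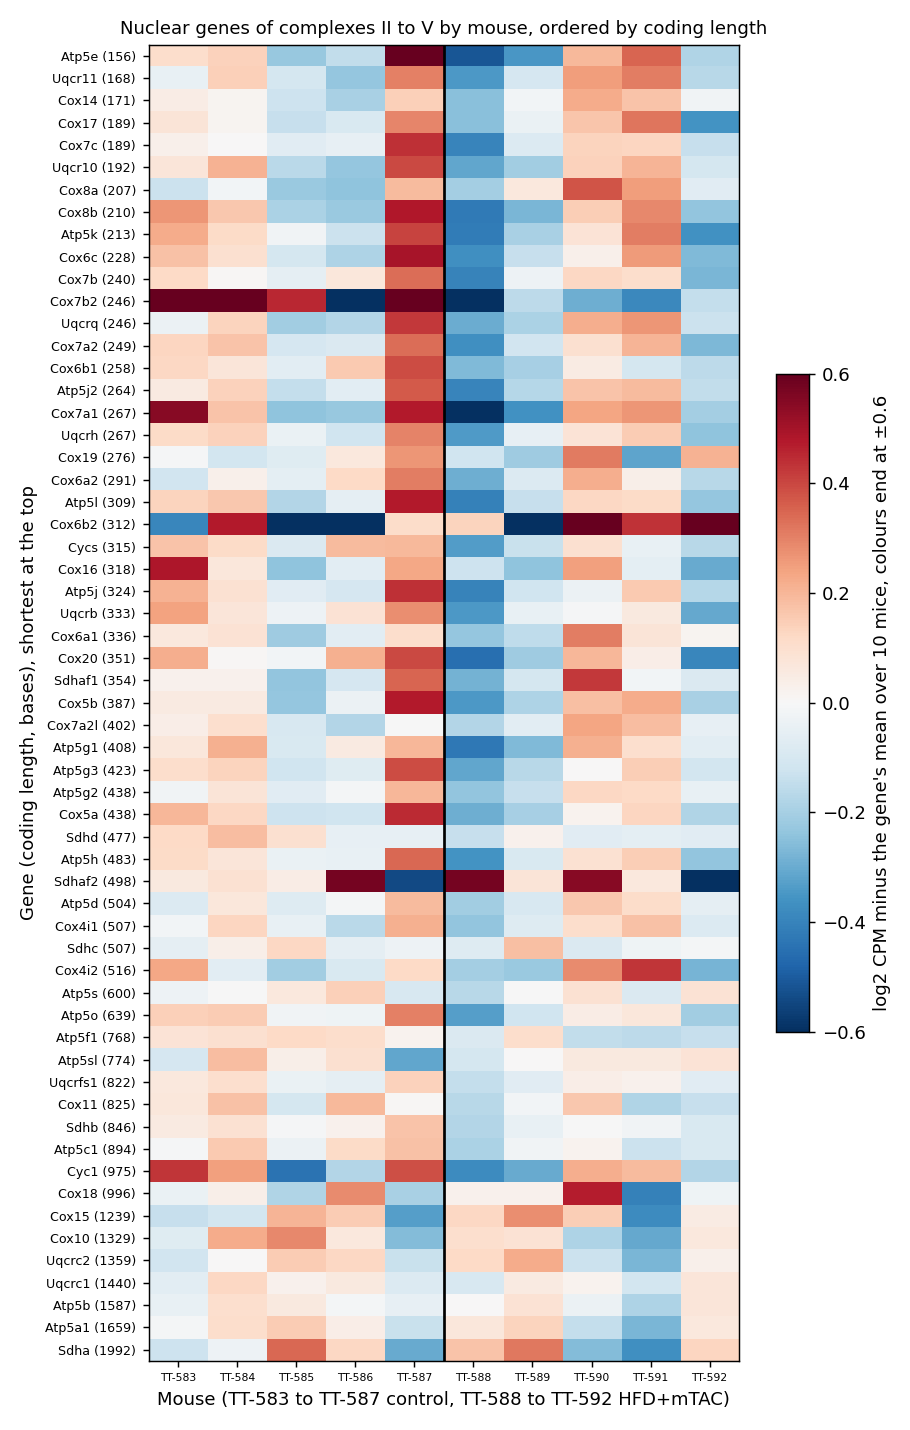
Deviation of log2 CPM from the mean of each gene over the 10 mice (colour, red above and blue below, ending at ± 0.6) for the 59 genes, ordered from the shortest coding length at the top to the longest at the bottom, with the length in bases in parentheses. Mice TT-587, TT-590 and TT-591 are mostly red at the top and blue at the bottom, and mice TT-588, TT-589 and TT-592 the reverse.

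Across the 59 genes, Spearman's rho between coding length and deviation was -0.69 in mouse TT-587, -0.63 in mouse TT-591, -0.38 in mouse TT-590 and -0.34 in mouse TT-583, and it was 0.65 in mouse TT-588, 0.56 in mouse TT-586, 0.52 in mouse TT-589, 0.50 in mouse TT-585 and 0.47 in mouse TT-592. In mouse TT-584 it was -0.04. These values describe genes that share their libraries. Both signs occurred in both groups. The gradient was not particular to the respiratory chain: among other tested genes with a mean over 5 CPM, the 169 with up to 300 coding bases had a median deviation of 0.21 in mouse TT-587 and -0.25 in mouse TT-588, and the 5982 over 1200 bases had -0.03 and 0.07.

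Fitted changes of the 59 genes were nearer 0 in the longest class and had no order over the other 3 classes. The median log2 fold change of the 59 genes was -0.15 up to 300 bases, -0.12 above 300 and up to 600 bases (23 genes), -0.14 above 600 and up to 1200 bases (9 genes) and -0.02 beyond that. For other genes in the same classes it was -0.07, -0.06, -0.02 and 0.02. With an offset for coding length in each mouse, an alternative added after the data were seen, the median of the 59 genes was -0.07. Of them, 40 were below 0, against 50.2% of all genes. At an unadjusted p under 0.05, 7 genes were then lower and 2, Cox14 and Cox8a, were higher, and 0 were called (smallest edgeR adjusted p 0.233). The shares of all genes at that unadjusted threshold are not given for this run. Of the 59 genes, 43 have coding lengths up to 600 bases. Fragment size and RNA integrity of the libraries were not given in the sources used here, and the part of any such quantity was not tested.

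**Figure D5:**
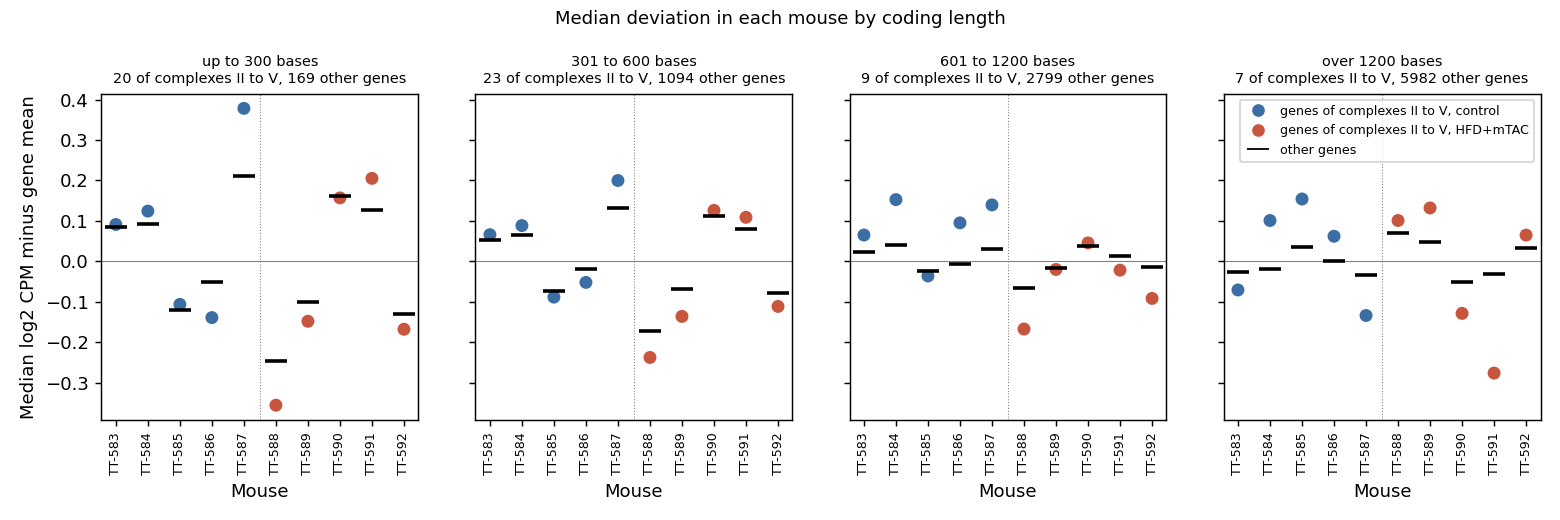
Median deviation of log2 CPM in each mouse (vertical axis) for genes in 4 classes of coding length, with blue and red points for genes of complexes II to V in control and HFD+mTAC mice and black dashes for the other tested genes over 5 CPM. Mouse TT-587 is highest and mouse TT-588 lowest among genes up to 300 bases, at 0.38 and -0.36, and the dashes follow the points at 0.21 and -0.25.

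Pseudogene copies of these genes share sequence with them. Of the 4 symbols left out by the -ps mark, Atp5l-ps1 was at 62.4 CPM in control mouse TT-583 and between 0 and 6.88 CPM in the other mice, while Atp5l itself, subunit g of ATP synthase, averaged 719 CPM in control and 617 CPM in HFD+mTAC mice. Assignment of reads between such copies is uncertain.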

How the data were processed

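RNA of the left ventricle was sequenced in 5 control and 5 HFD+mTAC mice. The study's account of this comparison gives fewer control mice, and all 5 in the files were used. The authors deposited estimated counts per gene (Salmon 1.6.0, summed to genes), TPM (corrected for length and scaled to a common total), and effective lengths of each gene in every mouse. Salmon 1.6.0 is named in the submitters' processing notes. The labels give single-end reads and the build hg38, the methods paired-end reads on GENCODE transcripts of GRCm38. This difference was not settled here. Of the counts, 20.1% were not whole, and they were rounded. Nuclear protein-coding genes with at least 1 count in 90% of mice were tested with edgeR 4.0.16 in R 4.3.3 (TMM, quasi-likelihood test, Benjamini-Hochberg adjustment over 13298 genes, no covariate, common dispersion 0.0422). The groups come from the labels, which give no batch and no pairing. Counts of any pair of mice in a group differed beyond sampling noise (chi-square over its degrees of freedom of 12.9 or more). Ratios and mitochondrially encoded genes were compared by exact permutation over 252 arrangements, whose smallest p is 0.00794. Deviations used log2(CPM + 0.125). Biotypes, coordinates and coding lengths come from GENCODE M21, in which, with newer symbols of RefSeq, all but 893 of 29564 genes matched. Alternatives were DESeq2 1.42.0 and its size factors, limma 3.58.1 on log2(TPM + 1) and log2(TPM + 0.1), other filters, all biotypes, transcript lengths as an offset, and each mouse left out. An offset for coding length and a run without mice TT-587 and TT-588 were added after the data were seen. The scripts were tested on simulated data. Genes were named by smallest p, by isoform pair and by highest and lowest TPM in each role. Cox6b2 and Sdha were named after their values were seen, as were genes given only as examples. The members and lists were chosen with earlier results of these data known.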

Additional observations from a re-analysis of the deposited data

Results flagged for a closer look

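Of 86 groups of 5 values looked at (named genes, ratios and shares, mitochondrially encoded genes and the median deviation of the 59 genes, in each group), 6 held 1 mouse far from the other 4, by a gap above 0.71 of the whole range. Chance gives about 1 in 20. HFD+mTAC mouse TT-589 stood apart in Sdhc, at 590.6 CPM with the others between 490.9 and 517.4, and in Atp5f1, at 1663 CPM with the others between 1389 and 1459. HFD+mTAC mouse TT-588 had 0 CPM of Cox7b2, with the others between 0.137 and 0.184. Control mouse TT-587 stood apart in Coq7 (193.9 CPM, others 154.8 to 160.1), in mt-Co3 (114584 CPM, others 71958 to 80415) and in the share of Atp5g1 in subunit c (35.53% of TPM, others 40.9 to 42.82%).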

How the results depend on the processing

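None of the nuclear genes of complexes II to V chosen by symbol was called under any alternative run. Their median log2 fold change stayed below 0, between -0.15 and -0.065 with each mouse left out, and was -0.037 without mice TT-587 and TT-588. The last run was added after the data were seen and leaves out mice that were extreme for many of these genes. Over all genes, 120 were called by DESeq2, 1 by limma on log2(TPM + 0.1), 1 on log2(TPM + 1), 1 with transcript lengths as an offset, 1 without mice TT-587 and TT-588, and 1 to 9 with each mouse left out (1 without TT-587, TT-588, TT-590 or TT-592, 2 without TT-585, 3 without TT-584). The cause was not tested. Of 29 named genes, 21 kept their direction in each alternative in which they were tested. Among these, Cox7b2 was not tested under edgeR's own filter or with any single mouse other than TT-588 left out. On log2(TPM + 0.1), log2 fold changes turned to 0.052 for Sdhc, 0.060 for Atp5g2, -0.031 for Sdhaf2 and 0.039 for Pdss1. On log2(TPM + 1) they were 0.052 for Sdhc, 0.060 for Atp5g2 and 0.033 for Pdss1. With transcript lengths as an offset they were 0.013 for Sdhc and 0.017 for Atp5g2, and with one for coding length 0.042 for Sdhc and 0.039 for Cox17. Without mice TT-587 and TT-588 they were 0.0017 for Sdhc, 0.011 for Cox6a2, 0.026 for Atp5g2, 0.074 for Cox17 and -0.25 for Sdhaf2. With each mouse left out, values ran from -0.063 to 0.023 for Sdhc, -0.15 to 0.024 for Cox17, -0.13 to 0.25 for Sdhaf2, -0.069 to 0.069 for Cox6a1 and -0.051 to 0.020 for Atp5b. The same ranges were -0.053 to 0.11 for the Cox4i2/Cox4i1 ratio, -0.559 to 1.30 percentage points for the share of Atp5g1, -2.11 to 0.268 for that of Atp5g3, -0.095 to 0.11 for mt-Co2, -0.0062 to 0.20 for mt-Co3 and -0.14 to 0.12 for mt-Atp8. On CPM, Cox8b/Cox8a was -0.37 (exact permutation p = 0.0238, unadjusted), the share of Atp5g1 -0.311 and that of Atp5g2 0.617 (exact permutation p = 0.0397, unadjusted). On deposited TPM, mt-Cytb was 0.14 (exact permutation p = 0.00794, the smallest possible, adjusted p = 0.0476 over the mitochondrially encoded subunits compared). On the same scale, mt-Co1 was -0.050 and mt-Co3 -0.0057. No paired analysis was possible because the mice share no numbers between the groups. The spread among mice, and the few counts of Cox7b2, Cox6b2 and Sdhaf2, limit what changes could be seen at this depth.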
